A study of Mus musculus with 6 samples.

Results

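The genes that encode antagonists of WNT signaling were followed in mouse embryonic stem cells (ESCs) in which Chd4 or Mbd3 had been knocked down. The set held 10 genes: Sfrp1, Sfrp2, Sfrp4, Sfrp5, Frzb, Dkk1, Dkk2, Dkk3, Wif1 and Apcdd1. All 10 were found among the 22180 genes that the array measured under a single gene symbol, and where a gene had several probe sets, the one with the highest mean intensity was used. The set was put together because Sfrp1 and Frzb were among the lowest genes of the knockdowns at day 4, so differences between knockdown and control at day 4 describe how the genes were chosen and carry no test.

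ESCs were infected with a lentivirus that carried a short hairpin RNA (shRNA) against Chd4, one against Mbd3, or a control shRNA. Each of the 3 lines was sampled at day 4, after neural differentiation as aggregates in serum-replacement medium, and at day 0, as stem cells on gelatin with serum and leukemia inhibitory factor. This gave 6 groups: Chd4 knockdown, Mbd3 knockdown and control at day 4, and the same lines at day 0, all carrying a lentiviral hairpin. Each group held 1 Mouse Gene 2.0 ST array of total RNA. No difference below therefore has a replicate check, no p-value is given, and precision is limited by the number of arrays. The sources used here do not say which ESC line was used, whether infected cells were cloned, or whether cultures were pooled.

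WNT proteins bind Frizzled receptors and LRP5 or LRP6 coreceptors, which stabilizes beta-catenin and turns on genes bound by TCF and LEF factors. Secreted antagonists act outside the cell: the secreted Frizzled-related proteins (encoded by Sfrp1, Sfrp2, Sfrp4, Sfrp5 and Frzb) and WIF1 bind WNT ligands, DKK1 and DKK2 bind the LRP coreceptors, DKK3 is a divergent relative, and APCDD1 is a membrane-anchored WNT inhibitor. In the embryo, WNT antagonists help to set where neural tissue forms and how it is patterned.

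The RNA of the targeted genes was lower in the matching lines. In the Chd4 knockdown, Chd4 stood at 71.3% of control at day 4 and 29.8% at day 0. In the Mbd3 knockdown, Mbd3 stood at 75.5% of control at day 4 and 43.0% at day 0. Deposited intensities, on a linear scale, ran from 17.4 to 7980, with array medians from 39.6 to 41.4. An intensity under 41.4, the highest of these medians, is treated as dim: where the dimmer of a pair of arrays was under it, a fold of 2 or more is given as "at least", computed against 41.4. A gene entered the counts where the brighter of both arrays reached its own array's median, and a gene was called past 2-fold where its log2 difference was at least 1 or at most -1. Comparisons that share an array are not independent of each other; both knockdowns share the control array of a day.

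Promoter sequences are shown for members whose day 4 intensities behaved differently, Sfrp2 and Frzb, which were far higher in control at day 4 than in any other array, and Dkk1, which was dim in all 6. Sfrp1, also far higher in control at day 4, is left out because no window was available for it. Sfrp4, Dkk3 and Apcdd1 had none either. Each is the RefSeq window of assembly GRCm38.p6 from 250 bases before to 50 bases after the annotated start, written 5′ to 3′ on the strand of the gene, and capitals mark matches to CTTTGA, a core of the TCF/LEF binding sequence, on either strand.
Sfrp2 (chr3:83766071-83766370, + strand): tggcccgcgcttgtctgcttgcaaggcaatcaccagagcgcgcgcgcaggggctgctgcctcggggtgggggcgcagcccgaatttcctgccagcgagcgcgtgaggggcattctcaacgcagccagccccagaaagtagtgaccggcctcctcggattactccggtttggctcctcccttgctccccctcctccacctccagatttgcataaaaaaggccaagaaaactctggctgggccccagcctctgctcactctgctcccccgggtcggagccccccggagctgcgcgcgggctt
Frzb (chr2:80447347-80447646, - strand): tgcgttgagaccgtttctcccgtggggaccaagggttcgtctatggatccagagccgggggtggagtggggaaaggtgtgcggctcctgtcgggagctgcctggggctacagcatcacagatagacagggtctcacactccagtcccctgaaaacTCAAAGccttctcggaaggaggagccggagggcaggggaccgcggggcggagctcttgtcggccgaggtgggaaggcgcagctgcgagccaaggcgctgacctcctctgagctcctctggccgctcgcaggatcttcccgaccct
Dkk1 (chr19:30549447-30549746, - strand): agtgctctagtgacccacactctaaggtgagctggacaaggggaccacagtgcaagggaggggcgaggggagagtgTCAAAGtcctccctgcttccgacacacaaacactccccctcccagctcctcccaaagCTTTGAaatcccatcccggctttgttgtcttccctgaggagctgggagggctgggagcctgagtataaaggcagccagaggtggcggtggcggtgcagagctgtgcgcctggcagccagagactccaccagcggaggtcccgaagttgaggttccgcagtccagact

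The window of Frzb held 1 match, at bases -95 to -90 from the start. That of Dkk1, a gene known to respond to WNT signaling, held 2, at -174 to -169 and -117 to -112. Sfrp2 had 0 matches in its window. Of all 32851 RefSeq windows of this length, 16% held the motif, so a match describes the letters and is not evidence of binding. CG dinucleotides numbered 22 in the Sfrp2 window, 20 in that of Frzb and 9 in that of Dkk1, against a median of 7 over all windows, and 76.9%, 73.5% and 54.2% of windows held fewer. The promoter table also held Dkk2, Sfrp5 and Wif1, with 11, 15 and 25 CG dinucleotides and 0 matches to the motif in each window.

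Across the 6 arrays, 3 of the 10 genes spanned 2-fold or more: Sfrp1 (14.9-fold between its highest and lowest array), Sfrp2 (8.79-fold) and Frzb (16.8-fold, with a dim lowest value). The other 7 spanned less than 2-fold, from 1.08-fold for Dkk1 to 1.77-fold for Apcdd1. In all 3 genes with a wide span the control array at day 4 was the highest. Intensities of different probe sets depend on their probes, so genes are not ranked by level here.

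**Figure D1:**
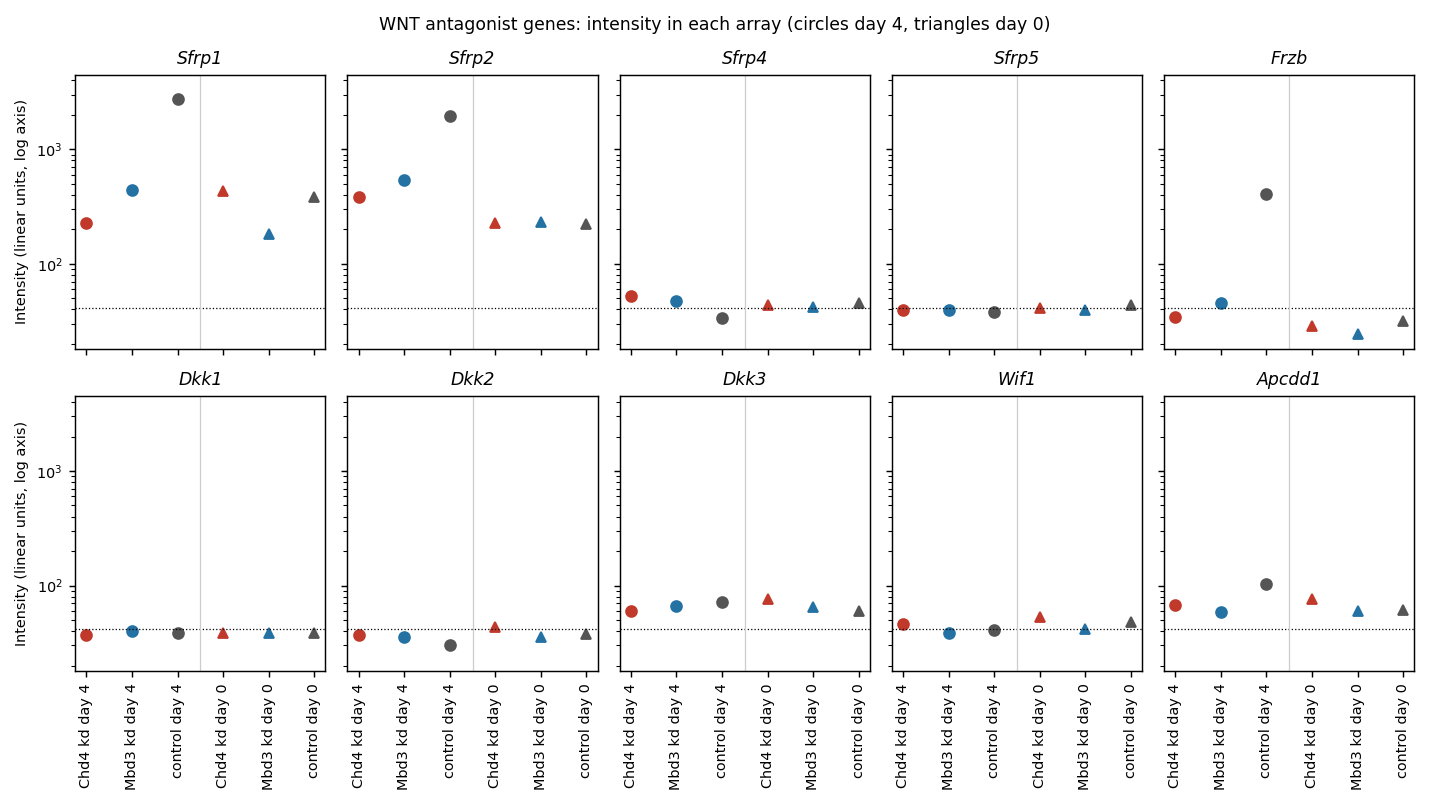
Intensity of the 10 WNT antagonist genes (linear units on a log axis) in each of the 6 arrays, 1 point per array, with circles for day 4, triangles for day 0 and a dotted line at 41.4, the highest array median. Sfrp1, Sfrp2 and Frzb are highest in control at day 4, at 2744, 1947 and 407, while Dkk1 lies under the dotted line in every array.

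Sfrp1, which encodes a WNT-binding protein made in the early neural tube, had intensities of 227 in the Chd4 knockdown, 443 in the Mbd3 knockdown and 2744 in control at day 4. At day 0 it had 434 in the Chd4 knockdown, 184 in the Mbd3 knockdown and 383 in control. The control array at day 4 stood far above the other 5, and the Mbd3 knockdown at day 0 was the lowest. At day 4 Sfrp1 was thus 12.1-fold lower in the Chd4 knockdown and 6.19-fold lower in the Mbd3 knockdown than in control, which placed it 10th and 32nd from the lowest of 13734 and 13588 genes compared.

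Frzb, which encodes a Frizzled-related protein first described in cartilage, had intensities of 34.3 in the Chd4 knockdown, 45.9 in the Mbd3 knockdown and 407 in control at day 4. At day 0 all 3 lines were dim, with 28.9 in the Chd4 knockdown, 24.3 in the Mbd3 knockdown and 31.5 in control. Control at day 4 stood far above the other 5 arrays. Frzb was at least 9.83-fold lower in the Chd4 knockdown than in control at day 4, and 8.88-fold lower in the Mbd3 knockdown.

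Sfrp2, expressed in the developing neural tube, had intensities of 385 in the Chd4 knockdown, 540 in the Mbd3 knockdown and 1947 in control at day 4. Its day 0 intensities lay close together, at 226 in the Chd4 knockdown, 232 in the Mbd3 knockdown and 221 in control. Sfrp2 was above its line's own day 0 value in both knockdowns at day 4, and well under the control value. Against control at day 4, Sfrp2 was 5.06-fold lower in Chd4-knockdown and 3.61-fold lower in Mbd3-knockdown cells, or -2.34 and -1.85 on the log2 scale. A second probe set of Sfrp2 was much dimmer and did not show this pattern: it ran from 39.0 to 57.0 over the 6 arrays, with its highest value in the Mbd3 knockdown at day 4.

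Apcdd1 had intensities of 68.1 in the Chd4 knockdown, 58.6 in the Mbd3 knockdown and 104 in control at day 4, and 75.9, 60.2 and 61.7 in the same lines at day 0. Control at day 4 was again the highest array, but the difference was smaller, with log2 differences from control at day 4 of -0.61 for Chd4 and -0.82 for Mbd3 knockdown. Sfrp4 went the other way: it had 52.2 in the Chd4 knockdown, 47.6 in the Mbd3 knockdown and 33.6 in control at day 4, and 43.9, 42.2 and 45.3 at day 0. For Sfrp4 the control array at day 4 was the lowest and was dim, so its size of change there cannot be measured.

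The remaining genes were close to the array medians and varied little. Dkk3, which encodes the divergent DKK family member, ran from 59.4 to 76.5 over the 6 arrays, with its highest value in the Chd4 knockdown at day 0. Wif1, which encodes a WNT-binding protein with a WIF domain, ran from 38.2 to 53.1. Dkk1, Dkk2 and Sfrp5 were within 36.9 to 39.9, 30.3 to 43.8 and 37.7 to 44.1, and were dim in 6, 5 and 4 of the arrays. These values do not tell low expression from none, since no detection call was available.

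In the Chd4 knockdown at day 4, 3 of the 10 (Sfrp1, Sfrp2 and Frzb) were at least 2-fold below control and 0 were at least 2-fold above it, where 6.65% of all genes compared were lower and 5.07% higher by that size. In the Mbd3 knockdown the same 3 genes were lower and 0 higher, against 4.9% and 3.44% of all genes. With the mean over both probe sets of Sfrp2 its differences were -1.16 for Chd4 and -0.71 for Mbd3 knockdown, and 2 of the 10 genes were called lower in the Mbd3 knockdown. The genes were chosen on this comparison, so the counts only describe it. Of the 10 genes, 7 passed the brightness filter in each comparison; Sfrp5, Dkk1 and Dkk2 did not. The median log2 difference over all 10 genes was -0.15 for Chd4 and -0.11 for Mbd3 knockdown, against 0.001 and -0.0004 over all 22180 genes; both medians include genes that did not pass the filter.

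**Figure D2:**
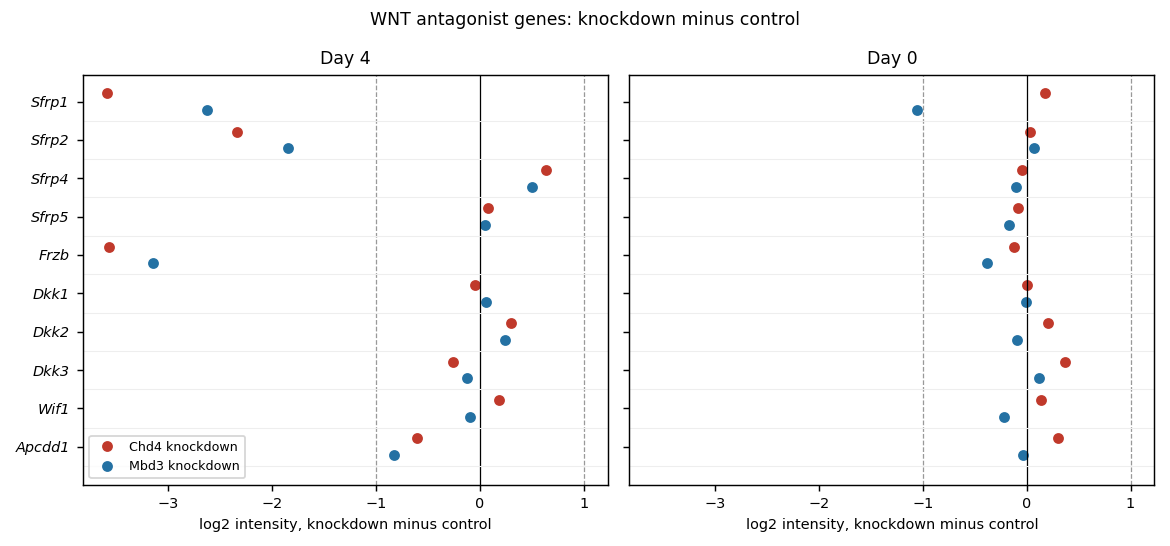
Difference of log2 intensity between knockdown and control (x axis) for each of the 10 genes, at day 4 on the left and day 0 on the right, with 1 point per knockdown and dashed lines at 2-fold. Sfrp1, Sfrp2 and Frzb lie between -3.59 and -1.85 at day 4, and at day 0 the only point past a dashed line is Sfrp1 in the Mbd3 knockdown, at -1.06.

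The knockdowns were set against control at day 0 to see whether the stem cells already differed before differentiation; these arrays were not used to choose the genes. In the Chd4 knockdown 0 of the 10 genes were at least 2-fold lower and 0 higher, with 0.565% and 0.692% of all genes past 2-fold in those directions. Sfrp1 differed by 0.18 on the log2 scale, Sfrp2 by 0.03 and Dkk3, the largest difference of the set there, by 0.36. Of the 10 genes 8 passed the brightness filter, 7 were above 0, and the median over all 10 was 0.08, against -0.01 over all 22180 genes.

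In the Mbd3 knockdown at day 0, 1 of the 10 genes was at least 2-fold lower and 0 were higher, where 0.314% of all genes were lower and 0.366% higher. That gene was Sfrp1, at 184 in the Mbd3 knockdown and 383 in control, a log2 difference of -1.06, which placed it 32nd from the lowest of 13388 genes. Sfrp2 differed by 0.07, and Frzb was dim in both arrays. The median of the 10 genes was -0.10, against -0.03 over all 22180 genes. No replicate shows whether a 2.08-fold difference between single arrays would recur.

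The knockdowns were also set against each other. At day 4 Sfrp1 was 1.95-fold lower in the Chd4 than in the Mbd3 knockdown (227 and 443), which was the 31st lowest of 13329 genes. Sfrp1 was chosen with both of these arrays, so this rank carries no test. Of the 10 genes 0 were past 2-fold, with 0.18% of all genes lower and 0.923% higher by that size. Sfrp2 differed by -0.49 on the log2 scale, and Frzb was dim in the Chd4 knockdown. At day 0 the order of Sfrp1 was the opposite: it was 2.36-fold higher in the Chd4 than in the Mbd3 knockdown (434 and 184) and was the 1 gene of the 10 past 2-fold, where 0.586% of all genes were higher and 0.466% lower.

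Day 4 was set against day 0 within each line to see which antagonist genes went with differentiation. In control, Frzb was at least 9.83-fold, Sfrp2 8.79-fold and Sfrp1 7.17-fold higher at day 4, so 3 of the 10 passed 2-fold upward and 0 downward, where 8.13% of all genes were higher and 4.7% lower. Apcdd1 followed at 0.75 on the log2 scale and Dkk3 at 0.27. The other 5 genes were below 0, between -0.43 for Sfrp4 and -0.01 for Dkk1. This comparison and those of the knockdowns with control at day 4 share the control array at day 4. Sfrp1 and Frzb were picked as low in the knockdowns against that array, which favors high control values there. Their rise in control therefore carries no test.

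The same step looked different in the knockdown lines. In the Mbd3 knockdown, Sfrp1 was 2.41-fold and Sfrp2 2.32-fold higher at day 4, so 2 of the 10 passed 2-fold upward and 0 downward, with 1.6% of all genes higher and 1.11% lower. Frzb was at 45.9 at day 4 and dim, at 24.3, at day 0. In the Chd4 knockdown 0 of the 10 genes were past 2-fold in either direction, with 1.7% of all genes higher and 1.16% lower. Sfrp2 was 0.77 higher there on the log2 scale, and Sfrp1 was 0.93 lower, at 227 at day 4 and 434 at day 0. Sfrp1 was thus higher at day 4 in the Mbd3 knockdown and control and lower at day 4 in the Chd4 knockdown. The day 4 knockdown values of Sfrp1 and Frzb were used to choose the set, so their day differences in the knockdown lines carry no test.

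**Figure D3:**
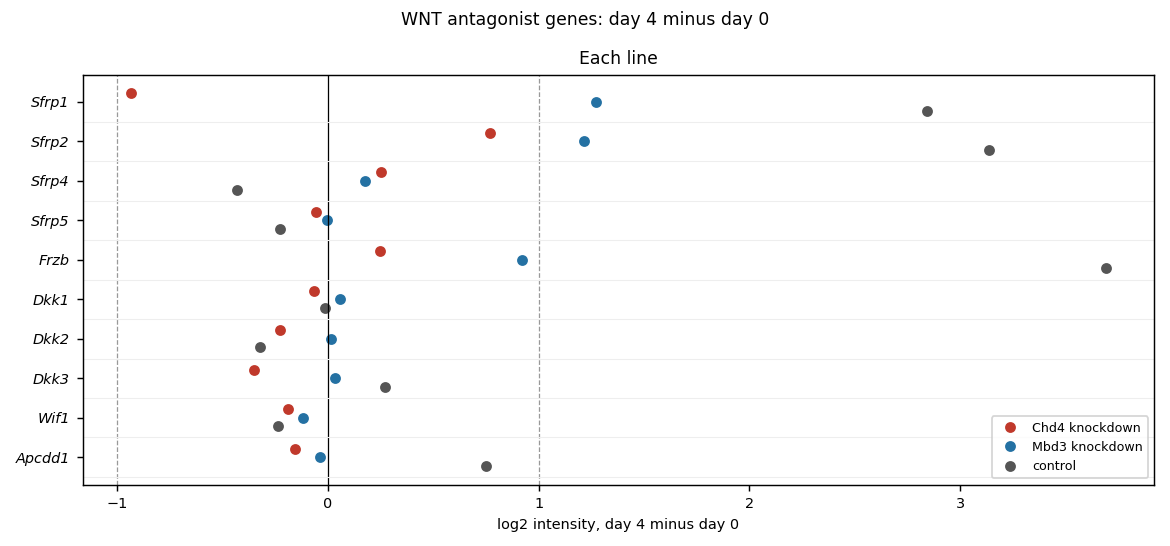
Difference of log2 intensity between day 4 and day 0 (x axis) for each of the 10 genes, with 1 point per line (Chd4 knockdown, Mbd3 knockdown, control) and dashed lines at 2-fold. Control has Sfrp1, Sfrp2 and Frzb at 2.84, 3.14 and 3.69, to the right of both knockdowns; the day 0 value of Frzb is dim, so its change in control is known only as at least 9.83-fold. Sfrp1 in the Chd4 knockdown lies at -0.93, on the other side of 0.

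The difference between the day effects can be written for each gene as knockdown minus control. This difference contains the day 4 difference from control on which the set was chosen, so it carries no test. For Sfrp1 it was -3.77 on the log2 scale for Chd4 and -1.57 for Mbd3 knockdown, and for Sfrp2 -2.37 and -1.92. Frzb was dim in 4 of the 6 arrays, and with dim values set to 41.4 it had -3.30 and -3.15. Apcdd1 followed with -0.91 and -0.79, and Sfrp4, treated as Frzb was, had 0.38 and 0.30. Sfrp1 had the widest gap between the knockdowns, and its Mbd3 knockdown value was already low at day 0.

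Bulk RNA cannot tell fewer cells of a type from less RNA per cell, so the makeup of the cells is given beside these values. The labels call all samples ESCs. Of 10 neural progenitor markers, 9 were at least 2-fold lower in each knockdown than in control at day 4, and their summed intensity was 813 in the Chd4 knockdown, 1202 in the Mbd3 knockdown and 5052 in control. At day 0 that sum was 491, 530 and 603 in the same lines. Among them Sox1, which marks early neuroectoderm, had 159, 360 and 1033 at day 4 in the Chd4 knockdown, Mbd3 knockdown and control. The sum and Sox1 had the same order of the lines at day 4 as Sfrp1, Sfrp2 and Frzb. Pax6 did not, at 63.5 in the Chd4 knockdown, 62.5 in the Mbd3 knockdown and 382 in control. Whether these orders are related was not tested. Of 10 pluripotency markers, 4 and 5 were at least 2-fold higher in the Chd4 and the Mbd3 knockdown at day 4, beside 5.07% and 3.44% of all genes. Their sums were 9251 in the Chd4 knockdown, 8568 in the Mbd3 knockdown and 4711 in control.

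Markers of other cell types were read in the same way. At day 4, 6.65% of all genes were at least 2-fold lower and 5.07% higher in the Chd4 knockdown. In the Mbd3 knockdown 4.9% were lower and 3.44% higher. Counts of 0 or 1 of 10 markers at day 4 are near these shares and are not read as results about those cell types. Of 10 neuron markers 8 were at least 2-fold lower in each knockdown at day 4, with sums of 1655 and 1432 in the Chd4 and Mbd3 knockdowns and 3433 in control. Of these sums Stmn2 alone made up 904 in the Chd4 knockdown, 518 in the Mbd3 knockdown and 1156 in control. Its control value at day 0 was 1517. Of 10 neural crest markers 2, Ednrb and Pax3, were lower, with sums of 522, 571 and 1500 in the same order, while Sox10, a defining neural crest gene, lay between 37.6 and 43.2 over the 6 arrays. The summed fibroblast markers ran from 405 to 540 over the arrays and those of mesoderm and endoderm from 471 to 492; 0 of the fibroblast markers and, with Gata6 in the Chd4 knockdown, 1 of the mesoderm and endoderm markers were past 2-fold at day 4. No gene is listed at 0 on these arrays, whose lowest intensities were between 17.4 and 17.6, so this does not show which markers were expressed. The part of cell makeup in the differences of Sfrp1, Sfrp2 and Frzb was not tested. In the Mbd3 knockdown at day 0, where Sfrp1 was lower, 0 neural progenitor markers were past 2-fold, and the summed neuron markers were 1403 in the knockdown and 2274 in control, of which Stmn2 alone made up 761 and 1517. Of the neural crest markers Foxd3, also a gene of pluripotent cells, was at least 2-fold lower there, at 70.0 in the knockdown and 185 in control. It was likewise lower in the Chd4 knockdown at day 0, at 84.0. Of all genes at day 0, 0.314% were lower by that size for Mbd3 and 0.565% for Chd4.

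Other genes of the WNT pathway were examined in 7 lists. Of 16 receptor and coreceptor genes, 4 were at least 2-fold lower in the Chd4 knockdown at day 4 and 2 in the Mbd3 knockdown, with 0 higher, where 6.65% and 4.9% of all genes were lower and 5.07% and 3.44% higher; the list medians were -0.42 and -0.45, against 0.001 and -0.0004 over all 22180 genes, again including genes that did not pass the filter. Fzd3, a Frizzled receptor of axon tract formation, had 103 in the Chd4 knockdown, 151 in the Mbd3 knockdown and 684 in control. The Frizzled genes Fzd2, Fzd7 and Fzd8 had log2 differences from control of -1.67, -1.56 and -1.36 in the Chd4 knockdown and -0.93, -1.03 and -0.79 in the Mbd3 knockdown. These 4 receptor genes, named for their large differences, were thus lower in the same arrays as the 3 antagonist genes. Fzd5 went furthest the other way, at 140 in the Chd4 knockdown, 115 in the Mbd3 knockdown and 70.2 in control, short of 2-fold.

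Of 19 WNT ligand genes, 8 were dim in both arrays of each comparison at day 4. In each knockdown 1 was at least 2-fold lower, with the same 6.65% and 4.9% of all genes lower: Wnt7a, at 37.3 in the Chd4 knockdown, 36.4 in the Mbd3 knockdown and 84.6 in control. Wnt8a, a ligand of the early epiblast, was 1 gene of the list past 2-fold in the other direction, in the Mbd3 knockdown (3.44% of all genes), with 123 in the Chd4 knockdown, 237 in the Mbd3 knockdown and 80.7 in control. The list medians were -0.10 and -0.02. Among 6 genes of WNT secretion, Wls, which carries WNT proteins to the cell surface, had 103 in the Chd4 knockdown, 163 in the Mbd3 knockdown and 488 in control and was the 1 gene past 2-fold in each knockdown, with list medians of -0.15 and -0.09.

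Of 21 other extracellular and surface modulators measured, 3 were at least 2-fold lower and 1 higher in the Chd4 knockdown at day 4, and 2 lower and 1 higher in the Mbd3 knockdown, beside 6.65% lower and 5.07% higher of all genes for Chd4 and 4.9% and 3.44% for Mbd3, with list medians of 0.03 and 0.05. Notum, which encodes an enzyme that inactivates WNT proteins by removing their lipid, went against Sfrp1: it had 141 in the Chd4 knockdown, 176 in the Mbd3 knockdown and 45.2 in control at day 4, a log2 difference of 1.64 and 1.96. At day 0 Notum had 111 in the Chd4 knockdown, 135 in the Mbd3 knockdown and 182 in control, so it was lower at day 4 in control and not in the knockdowns. Igfbp4, a growth factor binding protein that can also inhibit WNT receptors, had log2 differences of -1.68 and -1.30 in the Chd4 and Mbd3 knockdowns at day 4, and Shisa3, which retains Frizzled inside the cell, -1.73 and -1.45. Lgr5, an R-spondin receptor, was under 41.4 in both knockdowns and at 62.8 in control. It is 1 of the 3 counted as lower in the Chd4 knockdown, but with dim values set to 41.4 its difference is 0.60 in size and 2 genes are counted.

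Inside the cell, 2 of 16 relay genes were at least 2-fold lower in the Chd4 knockdown at day 4 and 1 in the Mbd3 knockdown, with 0 higher, where 6.65% and 4.9% of all genes were lower, and list medians of -0.20 and -0.12. Both encode partners of beta-catenin: Pygo1 had 54.6, 67.6 and 243 in the Chd4 knockdown, the Mbd3 knockdown and control, and Bcl9 had 262, 402 and 550. Of 9 TCF and LEF factors and corepressors, 0 were past 2-fold in either knockdown at day 4, and the medians were -0.28 and -0.08. At day 0, 2 of them were lower in the Chd4 knockdown, Lef1 (69.1 in the knockdown and 170 in control) and Tle4 (510 and 1035), which are named here after their values were seen; 0.565% of all genes were lower there.

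Of 13 WNT response genes measured, 2 were at least 2-fold lower in each knockdown at day 4 and 0 higher, again beside 6.65% and 4.9% of all genes lower, with list medians of -0.17 and -0.30. They were Ccnd1, a cyclin gene with many other inputs, at 322 in the Chd4 knockdown, 377 in the Mbd3 knockdown and 1139 in control, and Sp8, with a log2 difference of at least 1.27 in size in both knockdowns. Axin2, a widely used readout of beta-catenin signaling, had 114 in the Chd4 knockdown, 144 in the Mbd3 knockdown and 183 in control at day 4, and 122, 147 and 130 at day 0, with no difference of 2-fold. At day 0, 2 response genes were at least 2-fold lower in each knockdown, Ccnd1 and Myc, both named after their values were seen, beside 0.565% of all genes lower for Chd4 and 0.314% for Mbd3. Myc went the other way at day 4, short of 2-fold, at 258 in the Chd4 knockdown, 198 in the Mbd3 knockdown and 152 in control.

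**Figure D4:**
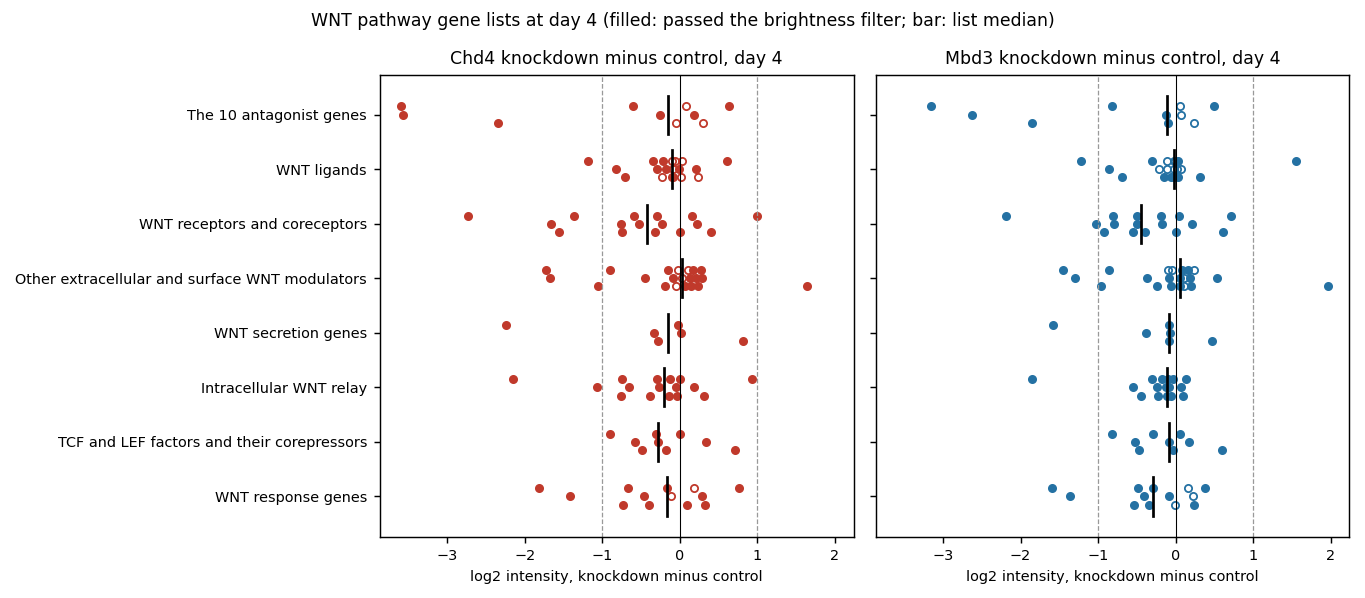
Difference of log2 intensity at day 4 between the Chd4 knockdown (left) or the Mbd3 knockdown (right) and control, for each measured gene of the 10 antagonists and of 7 WNT pathway lists; filled points passed the brightness filter, bars are list medians and dashed lines mark 2-fold. List medians lie between -0.45 and 0.05, and the lowest points are antagonist genes and Fzd3.

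Genes with the most similar pattern were found by the root mean square difference of log2 intensities, each gene centred on its own mean over the 6 arrays, among 13152 genes whose mean reached the median intensity. For Sfrp1 the nearest were Pou3f4 (0.35), a POU transcription factor gene, Abcd2 (0.35), a peroxisomal transporter gene, and Nhlh1 (0.38), a bHLH factor gene of early neurons. For Frzb they were Hoxa2 (0.12), a hindbrain homeobox gene, Ildr2 (0.13) and Dach1 (0.15), a transcription cofactor gene. Most of these genes were dim or near the array medians outside control at day 4, so the likeness rests mainly on that 1 array. Among the antagonists, Frzb was the 21st and Sfrp2 the 163rd nearest to Sfrp1 of 13151 genes. Sfrp1 and Sfrp2 were the 60th and 61st nearest to Frzb, at 0.44 each. Sfrp1 and Frzb were both picked as low in the knockdowns at day 4, and those arrays are part of the pattern compared. The ranks of Sfrp1 and Frzb as near to each other therefore carry no test.

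**Figure D5:**
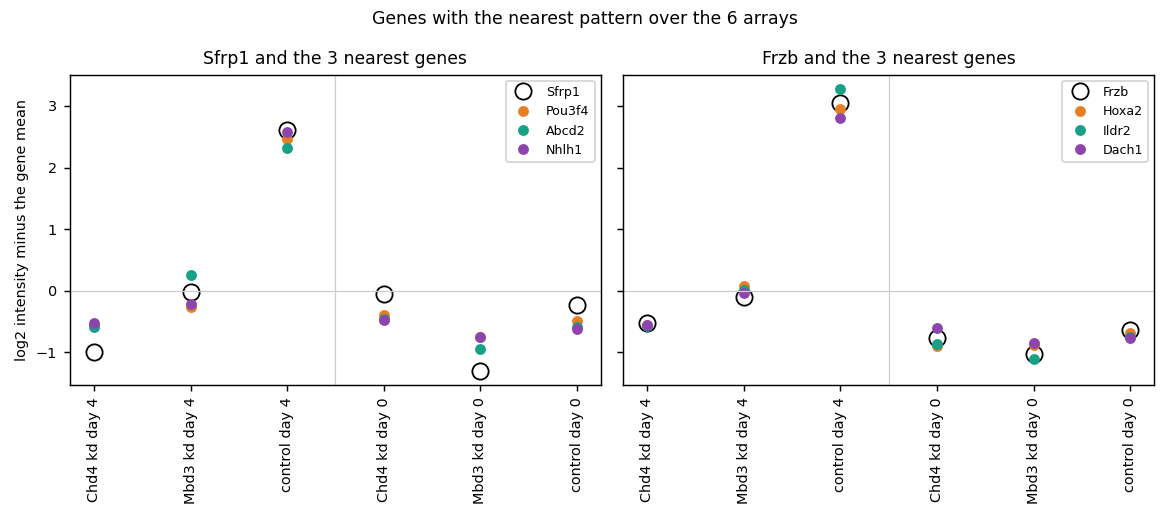
Log2 intensity minus the gene's mean over the 6 arrays for Sfrp1 (left) and Frzb (right, open circles) and for the 3 genes with the nearest pattern (filled points). Every gene shown is highest in control at day 4, and Sfrp1 sits below its nearest genes in the Chd4 knockdown at day 4 and in the Mbd3 knockdown at day 0.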

How the data were processed

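Total RNA of 6 ESC samples, 1 per group, was labelled with biotin and hybridized to Mouse Gene 2.0 ST arrays. Per the series design text the authors used GeneSpring GX 12.6.1, and the submitters' processing notes list RMA (background correction, quantile normalization and probe set summary) with no version. What the authors deposited are linear intensities. No genome build is given for the probe sets in these sources. Each array's lowest intensity was between 17.4 and 17.6; an added constant of 16 would give such a floor and shrink folds of dim genes, so subtracting 16 was 1 alternative.

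Of 34351 probe sets, 23521 carried 1 gene symbol, 1814 several and 9016 none; symbols were updated through RefSeq (GRCm38.p6) for 23328. This gave 22180 genes, 1082 of them with more than 1 probe set. Of 174 list entries, 169 matched by symbol and 1 by synonym; 4 were not analysed here. Log2 differences between 2 arrays were taken without further scaling, in 9 comparisons, and no significance test was run. Beside the 10 members, up to 4 genes of each WNT list were named, those past 2-fold in either knockdown at day 4 with the largest mean difference, and the 3 nearest genes of Sfrp1 and Frzb. Axin2, Lef1, Tle4, Myc, Fzd5 and single cell type markers were named after their values were seen. The members and lists were chosen with earlier results of these data known. Python 3.11.15, numpy 2.4.6 and pandas 2.3.3 were used.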

Additional observations from a re-analysis of the deposited data

Results flagged for a closer look

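Sfrp1 is the gene of the set whose day effect had opposite directions in different lines, each by at least 1.5-fold. Its log2 difference between day 4 and day 0 was -0.93 for the Chd4 knockdown and 1.27 for the Mbd3 knockdown, a gap of -2.20. Against control, where it was 2.84, the gap of the Chd4 knockdown was -3.77. Both gaps contain day 4 values on which the set was chosen, so they carry no test. Each value rests on 1 array per day and line, and the difference between the lines was not tested. The Chd4 RNA itself was nearer to control at day 4 (71.3%) than at day 0 (29.8%) in that line, and its part in the Sfrp1 values was not tested.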

How the results depend on the processing

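Under 6 alternatives, 159 counts and medians of the 10 genes stayed within 1.5 times of, or within 1.5-fold of, the reported values, and 3 did not. Most of the counts were 0 and the medians were small beside the 1.5-fold limit, so most of these values could hardly move. The 159 therefore says little about how stable the differences of Sfrp1, Sfrp2 and Frzb are. A change from 3 genes to 2 counts as within 1.5 times. With both arrays required to reach their medians, Frzb was lost in the Chd4 knockdown against control at day 4 and between days in control. This left 2 genes in each. Medians took in all 10 genes whatever the filter, so the 2 alternatives that changed the filter could not move them. With 16 subtracted from each intensity, 1 gene (Sfrp4) in place of 0 was at least 2-fold higher in the Chd4 knockdown than in control at day 4, and 1 (Sfrp1) in place of 0 was at least 2-fold lower in the Chd4 than in the Mbd3 knockdown at day 4. With the mean over all probe sets of a gene, which averages the dim second probe set of Sfrp2 into that gene, 1 in place of 2 genes was at least 2-fold higher at day 4 in the Mbd3 knockdown. No called difference of Sfrp1 or Frzb changed sign. With the mean over probe sets, Sfrp2, whose alternatives were added after seeing the data, had -1.16 and -0.71 in place of -2.34 and -1.85 for the Chd4 and Mbd3 knockdowns against control at day 4, and 1.62 in place of 3.14 between days in control; 2 in place of 3 of the 10 genes were then at least 2-fold lower in the Mbd3 knockdown. For Frzb, dim in 4 arrays, the log2 difference became -4.42 in the Chd4 knockdown against control at day 4 and 4.65 between days in control with 16 subtracted, and between days in the Mbd3 knockdown it was 1.85 with 16 subtracted and 0.15 with dim values set to 41.4. Subtracting 16 also raised the number of all genes past 2-fold by over 1.5 times in 7 of 9 comparisons, for example to 207 in place of 91 for the Mbd3 knockdown against control at day 0. With 1 array per group, no paired test was possible and no replicate could be left out. Day differences were taken within each line, and an additive model of line and day over the 6 arrays was not fitted. All values rest on single arrays, and no depth of single molecules is given by an array.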
